A study of Mus musculus with 10 samples.

Results

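Long non-coding RNA (lncRNA) genes carried 2148 of the 44925 regions in which H4K20me1, the monomethylated form of lysine 20 of histone H4, was mapped by CUT&RUN in cultured mouse muscle stem cells (MuSCs, also called satellite cells). A region was counted as an lncRNA peak when the deposited table listed it with an lncRNA gene, when it lay on an autosome and when it was shorter than 50000 bases. The peaks fell on 1463 genes, of which 1079 held 1 peak and 74 held 4 or more, up to 13. MuSCs came from mice with the tamoxifen-inducible Pax7CreERT driver, labelled either Pax7CreERT/Suv4-20h1WT (Ctrl) or Pax7CreERT/Suv4-20h1KO (Kmt5b sKO). Suv4-20h1 is the older name of Kmt5b, and both genotypes carried the driver, so that the floxed gene is removed only in cells that express Pax7 at the time of tamoxifen treatment. The mice were adults on a C57BL/6 background, and the cells were purified with magnetic beads and grown in medium with serum, LIF and bFGF. There were 2 libraries per genotype for H4K20me1 and 2 for RNA polymerase II phosphorylated at serine 2 (Pol II S2P).

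H4K20me1 is placed by KMT5A and is the substrate that KMT5B and KMT5C convert to the dimethylated and trimethylated forms. It is known as a mark that spreads over the bodies of genes and over the inactive X chromosome, and it rises and falls with the cell cycle. LncRNA genes are transcribed by RNA polymerase II without coding for protein, and some of them are the precursors of microRNAs or small nucleolar RNAs. Phosphorylation of serine 2 marks polymerase that is elongating through a gene.

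The value of a peak was its spike-in normalised score, a whole number for the coverage of the peak that was scaled by reads of added Drosophila DNA and was not divided by peak length. Scores per kb of peak are therefore used wherever peaks are compared with each other. Where a gene is given scores joined by "against", those before it are Ctrl 1 and Ctrl 2 and those after it sKO 1 and sKO 2. H4K20me1 scores over all peaks summed to between 15218720 and 35046570 per library, lowest in Ctrl 1 and highest in sKO 2, and Pol II S2P scores to between 3257665 and 4885638. Since the spike-in reads themselves were not analysed here, a difference shared by all peaks of a library cannot be told apart from a difference in its scale. Coverage over 3 H4K20me1 peaks and 2 Pol II S2P peaks on Kmt5b was present in all 4 libraries of each antibody, but the peaks do not single out the deleted exons and so do not check the genotype. Pol II S2P peaks were listed on 6 of 8 satellite cell and myoblast markers, with summed scores from 4220 to 6292 per library, and Myf5 and Cdh15 had none. Myod1, a muscle regulatory factor, had summed scores of 1329 and 1110 (Ctrl) against 887 and 649 (sKO), and the part of this in the results was not tested. Peaks on the 4 endothelial markers summed to 133 to 256 (Pecam1 and Tek only), on the 4 fibroblast markers to 50 to 82 (Dpt only) and on the 4 blood markers to 874 to 1368 (nearly all on Cd68, with Ptprc and Adgre1 without a peak).

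Of the 2148 lncRNA peaks, 1541 belonged to genes that GENCODE M21 calls lincRNA, 329 to antisense genes and 233 to processed transcripts. Symbols were taken from GENCODE by gene identifier for 2146 peaks, and 1277 of them were Gm models and 566 Rik models with little known about them. The median peak was 6800 bases long (quartiles 4600 and 11000), 1526 peaks lay with a fraction of over 0.5 inside the listed gene, and 563 covered its start. Scores given for a gene below are those of the peak listed with it, which can lie mostly outside the gene. Where a peak touched both kinds of gene, the deposited table listed it with the coding gene in nearly all cases. Of 5214 autosomal peaks under 50000 bases over an lncRNA gene, 3017 were listed with a coding gene, including 521 in which the lncRNA gene overlapped the peak for longer. Of the 2148 lncRNA peaks, 2146 touched no protein-coding gene. The other peaks, on Gm9958 and Gm5089, touched only their own listed gene, which GENCODE M21 types as protein-coding. They had scores of 38 and 55 against 179 and 118 (Gm9958) and of 76 and 170 against 248 and 279 (Gm5089). No lncRNA peak thus lay in a separate coding gene, and peaks inside and outside coding genes could not be compared.

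The length limit fell between peaks of like scores. The longest peaks under it were on 1700001J04Rik (49000 bases), with 1014 and 1396 against 1959 and 1951, and Gm28196 (48800 bases), with 1212 and 1869 against 1995 and 2314. The next above it, all of 53000 bases, had 1349 and 2038 against 2432 and 2630 (E330035G20Rik), 1361 and 1847 against 2173 and 2484 (Mir124a-1hg) and 1273 and 1669 against 2562 and 3009 (Rian).

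The sequences below belong to microRNAs whose genes lie inside lncRNA peaks, and they are shown because they include a host peak with one of the smallest changes, 6720427I07Rik, and hosts whose changes ranged from small to large. Mature sequences are from RefSeq (GRCm38.p6), 5′ to 3′, with the seed, bases 2 to 8, in capitals. The 27 lncRNA peaks with a microRNA gene inside held 62 microRNA genes, of which 50 were matched in RefSeq. The first group shares the let-7 seed and comes from a peak on 6720427I07Rik (let-7a, let-7f and let-7d) and one on Lncppara (let-7c and let-7b).
mmu-let-7a-5p: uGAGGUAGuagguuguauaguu
mmu-let-7f-5p: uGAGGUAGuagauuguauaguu
mmu-let-7d-5p: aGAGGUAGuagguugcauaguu
mmu-let-7c-5p: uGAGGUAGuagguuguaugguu
mmu-let-7b-5p: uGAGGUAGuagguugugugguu
The second pair shares the miR-15/16 seed and comes from a peak on Dleu2.
mmu-miR-15a-5p: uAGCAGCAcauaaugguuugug
mmu-miR-16-5p: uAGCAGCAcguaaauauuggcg
The last group has 3 different seeds and comes from peaks on Mir155hg, E130102H24Rik and 4631405K08Rik.
mmu-miR-155-5p: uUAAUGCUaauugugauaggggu
mmu-miR-101a-3p: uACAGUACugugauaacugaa
mmu-miR-205-5p: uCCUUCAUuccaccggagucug

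H4K20me1 was higher in sKO than in Ctrl MuSCs over nearly the whole set of lncRNA peaks. Median scores per kb of 16.9 (Ctrl 1) and 23.4 (Ctrl 2) stood against 45.5 (sKO 1) and 49.2 (sKO 2), so the genotypes did not overlap. The median of log2(score + 1) was 6.74 and 7.26 (Ctrl) against 8.25 and 8.38 (sKO), a difference of 1.31 with a pooled SD of 0.27 (n = 2 per genotype). An exact two-sided permutation test over the 4 libraries gave p = 0.333, which is the smallest value that 2 against 2 libraries allow. Per peak, limma on log2(score + 1) over 40902 autosomal peaks with a mean score over 50 counted a peak as changed when its Benjamini-Hochberg adjusted p was below 0.1 and its log2 change exceeded 0.5 in size, which were the limits of the study. It tested 2140 lncRNA peaks and called 1945 of them higher in sKO and none lower (1886 had an unadjusted p under 0.05 in either direction). Over all tested peaks 90.1% were called higher, so the 90.9% of lncRNA peaks was near the background. Both sKO scores lay above both Ctrl scores in 1998 lncRNA peaks, or 93.4%, against 93.9% of all tested peaks. A fit without 1 library leaves 1 library in a genotype, so changes are given here for such fits and calls are not. The range of their counts of calls is given only where the dependence on processing is described, and nothing is concluded from it. Without sKO library 2 the median change was 1.19 in lncRNA peaks and 1.08 in all tested peaks. Without Ctrl library 1 these medians were 1.03 and 0.93. The libraries came from bulk cells, so a change in some of the cells and a smaller one in all of them cannot be told apart. The 8 peaks left untested had mean scores from 34.3 to 49.5.

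The size of the change depends on the scale between libraries. The median log2 change of all tested peaks was 1.14, and that of lncRNA peaks was 1.24 (quartiles 0.90 and 1.61). With the libraries scaled to equal totals, the median of all tested peaks became 0.17, and 608 lncRNA peaks were called higher and 54 lower, or 28.4% and 2.52%, against 22.5% and 4.42% of all tested peaks. After quantile normalisation, which removes any common change, the counts were 296 higher and 237 lower. These were 13.8% and 11.1% of lncRNA peaks, against 11.6% and 11.6% of all tested peaks. A change relative to the median of all peaks is therefore given below beside the spike-in scaled value of single peaks.

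The rise of lncRNA peaks was compared with that of 27059 protein-coding and 9035 no-gene peaks of the same length limit. Median changes on the log2 scale were 1.24 for lncRNA, 1.15 for protein-coding and 1.20 for no-gene peaks. Measured per library from the Ctrl mean, lncRNA peaks exceeded protein-coding peaks by 0.09 in sKO 1 and 0.10 in sKO 2, while the Ctrl libraries differed by 0.02 to either side of 0, and they exceeded no-gene peaks by 0.06. Both differences had the smallest exact permutation p of 0.333. The excess over protein-coding peaks was not seen at every length or level. In peaks of 20000 bases or more it was -0.09. Within each of 4 equal classes of lncRNA peaks by the level in Ctrl 1, with the change measured from Ctrl 2, it lay between -0.07 and -0.03, so that the order of the 2 kinds of peak was the reverse at a like Ctrl level.

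LncRNA peaks held 2.58% and 2.64% of the autosomal H4K20me1 score in Ctrl and 2.95% and 2.98% in sKO. The share was higher in both sKO libraries, by 0.35 percentage points (exact permutation p = 0.333). Shares of protein-coding peaks under 50000 bases rose as well, from 55.6% and 55.2% to 58.3% and 58.4%, and those of no-gene peaks from 8.41% and 8.84% to 9.70% and 9.82%. The 2007 autosomal peaks of 50000 bases or more held most of the rest, with 32.3% and 32.2% in Ctrl and 27.8% and 27.6% in sKO, and peaks of other gene types held what remained. The levels of the 3 classes by library are shown in the box plot.

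**Figure D1:**
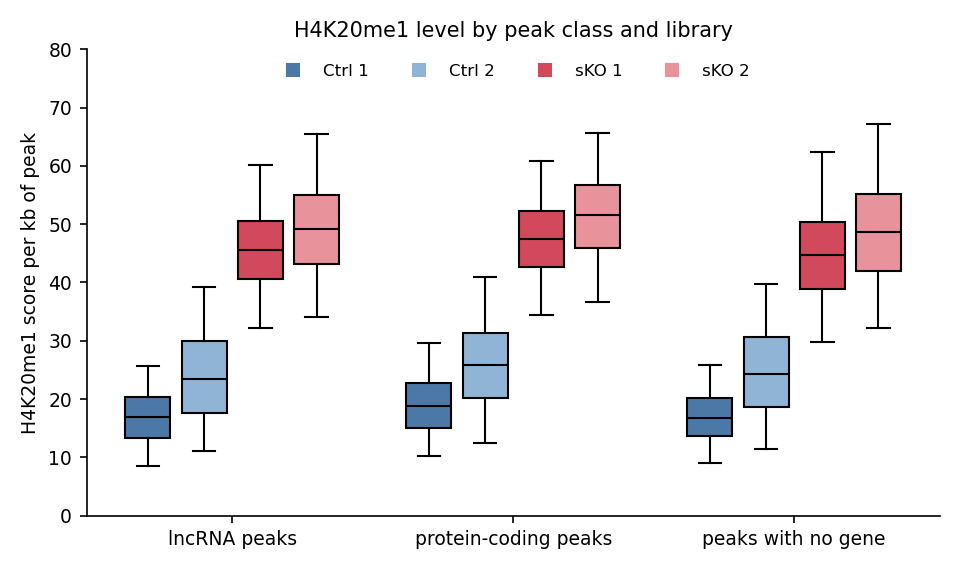
H4K20me1 score per kb of peak (y axis) for lncRNA, protein-coding and no-gene peaks in the 4 libraries. Boxes show the quartiles with the median as a line, and whiskers the 5th and 95th percentiles over peaks. The medians of lncRNA peaks were 16.9 and 23.4 (Ctrl) against 45.5 and 49.2 (sKO), close to those of the other classes.

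Levels of the lncRNA peaks differed from each other more in Ctrl than in sKO. The SD over peaks of log2 score per kb was 0.50 and 0.58 (Ctrl) against 0.29 and 0.29 (sKO), without overlap between the genotypes (exact permutation p = 0.333). Protein-coding peaks showed the same order, with 0.47 and 0.52 (Ctrl) against 0.26 and 0.27 (sKO). Scores were lower in Ctrl, and the part of this in the wider spread was not tested. Across the 2148 lncRNA peaks, levels in the Ctrl libraries were related to each other (Spearman rho 0.64) and those in the sKO libraries less so (rho 0.33). Between a Ctrl and an sKO library rho ranged from -0.11 to 0.06. These values describe peaks of 4 libraries, and peaks are not independent replicates.

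Peaks that were low in Ctrl rose most. To keep the level and the change apart, lncRNA peaks were split into 4 level classes of 537 by the score per kb in Ctrl 1, and the change was measured from Ctrl 2. In the lowest class the medians per kb were 11.1 and 15.3 (Ctrl) against 45.7 and 48.8 (sKO), a log2 change from Ctrl 2 of 1.62. The highest class went from 23.0 and 30.6 to 46.4 and 49.7, a change of 0.64. The classes between them changed by 1.15 and 0.90. Thus sKO levels were alike in all 4 classes, at 44.7 to 46.4 per kb in sKO 1, although the Ctrl levels differed. Peaks were merged over both genotypes, so a region low in Ctrl could enter by a high level in sKO. Regions low in both genotypes were left out. The part of this selection in the pattern, and in the wider spread in Ctrl, was not tested. The plot of sKO against Ctrl levels shows the same pattern peak by peak.

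**Figure D2:**
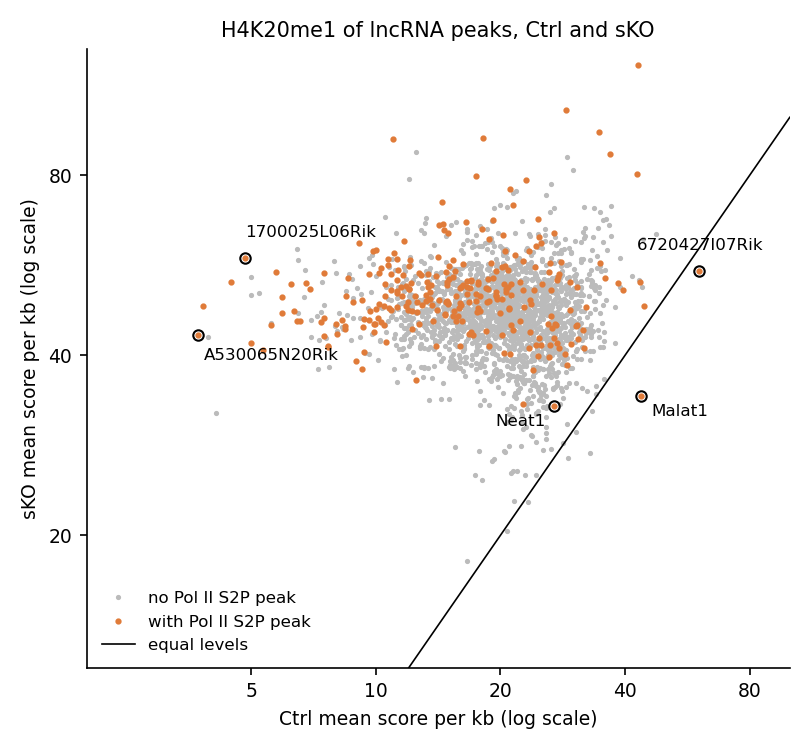
Mean H4K20me1 score per kb in Ctrl (x axis, log scale) and in sKO (y axis, log scale) for the 2148 lncRNA peaks, with peaks that overlap a Pol II S2P peak in orange. Nearly all points lie above the line of equal levels, Malat1 and 6720427I07Rik lie below it, and A530065N20Rik and 1700025L06Rik lie at the left among the lowest Ctrl levels.

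The 5 lncRNA peaks with the largest rise had little H4K20me1 in Ctrl. None of these genes has a role that is well known. On A530065N20Rik (ENSMUSG00000114531, chr13:60068200-60073999, inside the gene) the scores were 30 and 13 (Ctrl) against 220 and 282 (sKO), a log2 change of 3.59 ± 0.53 (SE; limma, adjusted p = 5.7e-10). The peak on Gm40915 (chr13:37620400-37623799) had 15 and 11 in Ctrl against 187 and 142 in sKO, a change of 3.56 ± 0.69 (adjusted p = 1.6e-06). At the start of 1700025L06Rik (chr7:46348400-46351199) scores of 10 and 17 stood against 160 and 166, a change of 3.54 ± 0.68 (limma, adjusted p = 1.6e-06). That peak lay with a fraction of 0.3 inside the gene. In all 3 the sKO scores were far above the Ctrl scores, as the choice by largest change makes likely. The rise exceeded the median of all peaks by 2.40 to 2.44.

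The remaining 2 covered the starts of their genes. The first peak of Gm49539 (chr15:85645000-85648799) went from 14 and 20 to 179 and 224, a change of 3.50 ± 0.59 (adjusted p = 5.8e-08). The peak on Gm29458 (chr13:37453000-37455799), with a fraction of 0.1 inside the gene, went from 6 and 22 to 141 and 141, a change of 3.48 ± 0.74 (limma, adjusted p = 1.25e-05). Neither pair of genotypes overlapped. With scores this low in Ctrl, a few units more or less there would move the log2 change by much, as the SEs show.

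Sequences around 4 gene starts inside lncRNA peaks are given to show how unlike they were in CpG content. Each runs from 250 bases before the GENCODE M21 start to 50 bases from it, read 5′ to 3′ on the strand of the gene from GRCm38.p6, with CG dinucleotides in capitals. The first 3 belong to peaks with the largest rise, and Gm48341 belongs to one of the peaks with the smallest change.
1700025L06Rik, chr7:46349324-46349623, minus strand: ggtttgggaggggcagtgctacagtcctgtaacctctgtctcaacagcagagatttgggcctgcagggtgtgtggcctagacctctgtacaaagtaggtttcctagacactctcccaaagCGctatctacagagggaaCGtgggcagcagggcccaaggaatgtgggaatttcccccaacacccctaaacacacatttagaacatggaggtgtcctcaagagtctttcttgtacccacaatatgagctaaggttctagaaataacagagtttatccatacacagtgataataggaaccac
Gm49539, chr15:85645833-85646132, plus strand: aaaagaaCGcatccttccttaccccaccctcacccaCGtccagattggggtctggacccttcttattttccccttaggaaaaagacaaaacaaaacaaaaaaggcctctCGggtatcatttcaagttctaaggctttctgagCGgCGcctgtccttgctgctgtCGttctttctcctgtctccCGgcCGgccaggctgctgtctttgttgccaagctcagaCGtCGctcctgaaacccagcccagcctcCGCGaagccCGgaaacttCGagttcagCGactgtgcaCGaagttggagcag
Gm29458, chr13:37453159-37453458, minus strand: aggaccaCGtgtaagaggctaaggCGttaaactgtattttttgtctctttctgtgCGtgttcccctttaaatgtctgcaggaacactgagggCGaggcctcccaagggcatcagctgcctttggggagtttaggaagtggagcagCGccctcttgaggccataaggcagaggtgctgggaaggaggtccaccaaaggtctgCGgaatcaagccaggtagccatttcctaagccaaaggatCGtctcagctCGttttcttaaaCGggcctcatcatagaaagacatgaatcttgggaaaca
Gm48341, chr10:121001012-121001311, minus strand: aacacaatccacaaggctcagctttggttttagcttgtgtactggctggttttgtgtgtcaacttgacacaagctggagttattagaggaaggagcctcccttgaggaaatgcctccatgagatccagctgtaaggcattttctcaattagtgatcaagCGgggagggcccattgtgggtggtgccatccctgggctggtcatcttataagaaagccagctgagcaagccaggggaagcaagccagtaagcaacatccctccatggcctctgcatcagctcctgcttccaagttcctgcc

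The windows held 2, 16, 9 and 1 CG dinucleotides in that order. Over the 542 lncRNA peaks that contained such a window whole, the median was 4, the same as for all 9421 autosomal lncRNA genes and below the 12 of 20807 coding genes. Windows with 10 or more CG made up 12.5% of these peaks, 22.3% of all lncRNA genes and 54.5% of coding genes. Peaks over an lncRNA gene that were listed with a coding gene were not among the 542. The part of this in the lower share was not tested. The median change was 1.38 in the 68 peaks with 10 or more CG, 1.24 in the 314 with 3 to 9 and 1.18 in the 159 with 0 to 2. A Pol II S2P peak overlapped 17 of the 68 and 19 of the 159. Peaks that covered a gene start and the others differed in change by 0.00 on the log2 scale with a pooled SD of 0.01 (exact permutation p = 1).

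The other end of the range held 5 lncRNA peaks whose log2 change was below 0, and none of them was called. The lowest was on Malat1, an abundant nuclear RNA that is retained in nuclear speckles. Its peak (chr19:5792000-5801799) had scores of 357 and 498 (Ctrl) against 290 and 381 (sKO), a change of -0.34 ± 0.29 (limma, adjusted p = 0.247). The Ctrl and sKO scores overlapped. Relative to the median of all peaks this was -1.49, and the peak was called lower when libraries were scaled to equal totals (-1.32, adjusted p = 3.6e-15). Without Ctrl library 1 its change was -0.58. Malat1 also had one of the highest Ctrl levels, at 43.6 per kb.

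The peak on 6720427I07Rik, host of the let-7a, let-7f and let-7d sequences shown above, had the highest Ctrl level of all lncRNA peaks, 60.5 per kb. Over chr13:48527600-48545599 it had 952 and 1226 (Ctrl) against 919 and 1076 (sKO), again with overlap between the genotypes. Its change was -0.12 ± 0.27 (adjusted p = 0.664), or -1.26 relative to the median of all peaks, and it was called lower after scaling to equal totals (adjusted p = 8.1e-30). Gm43154, Gm48341 and Gm12962 were short peaks of 1800 to 2600 bases with changes of -0.23, -0.02 and -0.01. Their scores were 65, 106, 81 and 62 (Gm43154), 50, 101, 69 and 71 (Gm48341) and 46, 74, 54 and 62 (Gm12962), in the order Ctrl 1, Ctrl 2, sKO 1, sKO 2. In all of them Ctrl 2 was the highest library. Without Ctrl library 2 the changes of 6720427I07Rik, Gm43154, Gm48341 and Gm12962 turned to 0.06, 0.12, 0.48 and 0.32, and that of Gm12962 also turned without sKO library 1 (0.09).

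The 5 highest Ctrl levels were, besides those of 6720427I07Rik and Malat1, on Gm14095 (47.5 per kb), Gm41505 (44.5) and Platr30 (44.3, with a fraction of 0.2 inside the gene). None was called. Gm14095 had 190 and 342 (Ctrl) against 307 and 409 (sKO), Gm41505 had 121 and 128 against 135 and 136, and Platr30 had 38 and 86 against 91 and 84. Only Gm41505 had both sKO scores above both Ctrl scores, and there the change was 0.12 ± 0.39 (adjusted p = 0.758). The changes of Gm14095 and Platr30 were 0.47 ± 0.30 and 0.60 ± 0.53 (adjusted p = 0.123 and 0.267), and without Ctrl library 2 they were 0.90 and 1.18. High Ctrl level and small change are 2 views of the same Ctrl scores in this selection, and no test was made of it. The plot of named peaks gives the 4 libraries of each.

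**Figure D3:**
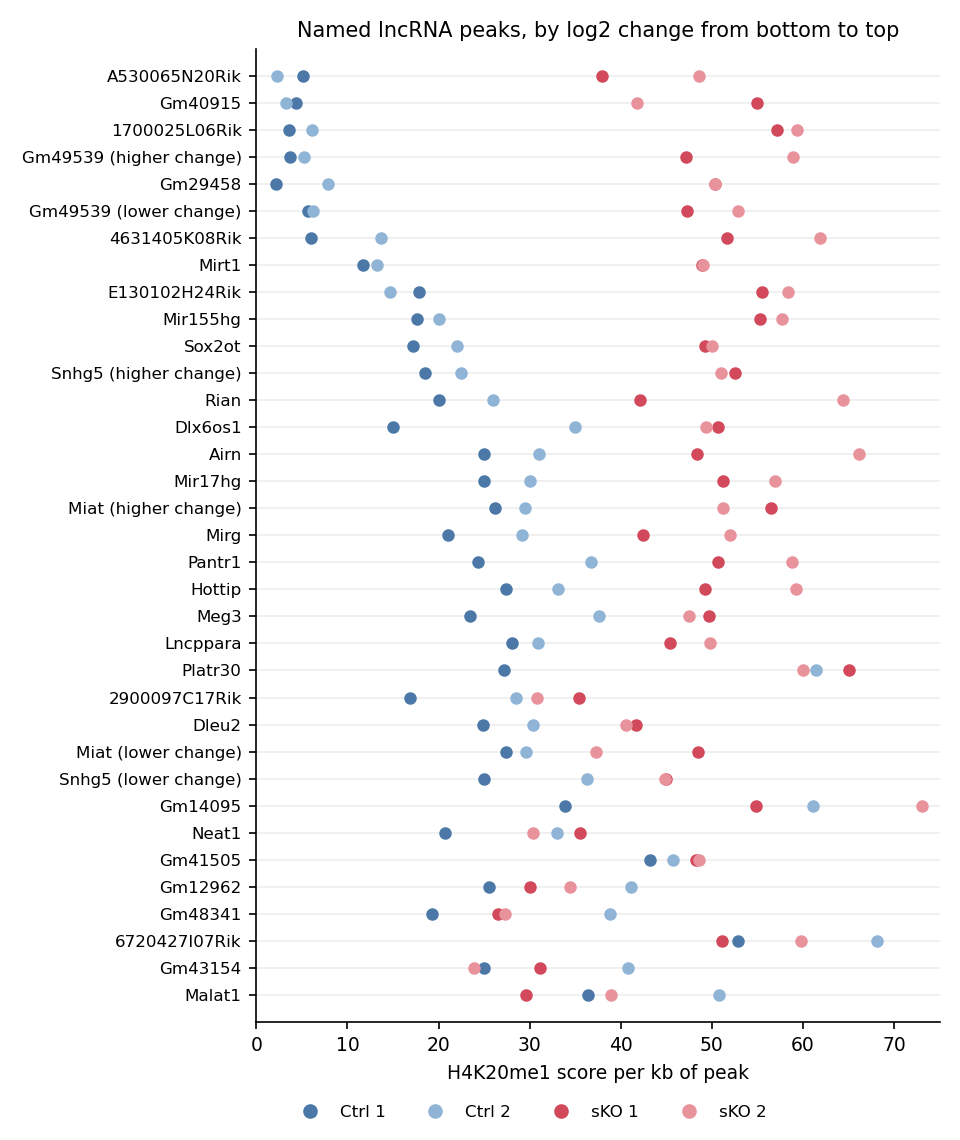
H4K20me1 score per kb of peak (x axis) of named lncRNA peaks in the 4 libraries, ordered by log2 change from Malat1 (-0.34, bottom) to A530065N20Rik (3.59, top). Ctrl points lie far to the left of the sKO points in the top rows and are mixed with them in most of the bottom rows.

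The list of nuclear and other abundant lncRNAs had the smallest median change of the gene lists. It had 5 lncRNA peaks on 4 genes, and none reached the median change of all peaks. Of the 5, 2 were called higher, where 90.1% of all tested peaks were. The median change was 0.57. After scaling to equal totals it was -0.40 with 2 peaks called lower (Malat1 and Neat1), as were 4.42% of all tested peaks. Neat1, the scaffold RNA of paraspeckles, had 116 and 185 (Ctrl) against 199 and 170 (sKO), which overlapped (0.33 ± 0.35, adjusted p = 0.364). Leaving out Ctrl library 2 gave 0.66 and leaving out Ctrl library 1 gave -0.01. 2900097C17Rik, the mouse Norad, a cytoplasmic RNA that binds Pumilio proteins, had 81 and 137 against 170 and 148 and was not called (0.59 ± 0.39, limma, adjusted p = 0.141). That peak lay with a fraction of 0.4 inside the gene. Without Ctrl library 2 its change was 0.96. The 2 peaks of Miat, a nuclear lncRNA, rose by 0.95 and 0.57, with 147 and 165 against 316 and 287 in the first and 192 and 207 against 339 and 261 in the second. The Miat changes were 1.02 and 0.76 without sKO library 2, and 0.88 and 0.39 without sKO library 1.

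The imprinted domain list had 5 peaks on Airn, Meg3, Rian and Mirg. All 5 were called higher, where 90.1% of all tested peaks were, with changes from 0.71 to 1.19, and 4 were below the median of all peaks. Meg3, a maternally expressed lncRNA, had 553 and 887 (Ctrl) against 1173 and 1120 (sKO) (0.71 ± 0.27, adjusted p = 0.0113). Rian, the snoRNA host of the same domain on chromosome 12, had 196 and 255 against 413 and 631 (1.19 ± 0.29, limma, adjusted p = 0.000135). Mirg, a microRNA host there, had 535 and 741 against 1077 and 1321 (0.92 ± 0.27, limma, adjusted p = 0.00116). The Mirg peak lay with a fraction of 0.3 inside the gene. The first peak of Airn, the antisense RNA that silences Igf2r, had 150 and 186 against 290 and 397 (1.02 ± 0.31, adjusted p = 0.00195). The genotypes did not overlap in any of these peaks. None was called higher with libraries scaled to equal totals, where the median of the list was -0.06. Without sKO library 2 the changes of these 4 peaks ran from 0.74 to 0.88. That of Meg3 dropped to 0.37 without Ctrl library 1.

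Developmental lncRNAs had 4 of 4 peaks called higher, where 90.1% of all tested peaks were, and a median change of 0.99. None was called with libraries scaled to equal totals, where the median was 0.01, and after quantile normalisation it was -0.18. Only Sox2ot exceeded the median of all peaks. Hottip, transcribed from the end of the HoxA cluster, had 636 and 768 (Ctrl) against 1143 and 1373 (sKO) (0.84 ± 0.27, limma, adjusted p = 0.00283). That peak lay with a fraction of 0.2 inside the gene. Sox2ot, within which the Sox2 gene lies, had 182 and 234 against 522 and 530 (1.35 ± 0.29, adjusted p = 1.9e-05). The genotypes of both were apart. Pantr1 and Dlx6os1 changed by 0.87 and 1.11. Without sKO library 2 the changes of Hottip, Pantr1 and Dlx6os1 were 0.71, 0.76 and 1.13. Dlx6os1 changed by 0.51 without Ctrl library 1. Among snoRNA hosts only Snhg5 had lncRNA peaks, and its 2 peaks changed by 1.34 and 0.57, with 96 and 117 against 273 and 265 and with 130 and 189 against 234 and 233. Both were called, the second at an adjusted p of 0.0956, and the change of the second was 0.30 without Ctrl library 1. None of the 7 muscle lncRNA symbols that were looked for matched an lncRNA peak. A gene annotated under another symbol, or a peak listed with a coding gene, would not be found in this way.

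The microRNA host list, drawn up by gene name, had 21 peaks on 6 genes, and not all of these peaks contained a microRNA gene. Of the 21 peaks, 19 were called higher, near the 90.1% of all tested peaks. The median change was 1.31, with a range from 0.38 to 3.31. With libraries scaled to equal totals 5 of the 21 were called higher and none lower, with a median of 0.34, and the quantile normalised median was 0.02. Mir155hg, the precursor of miR-155, had 219 and 248 (Ctrl) against 686 and 715 (sKO) (1.58 ± 0.29, adjusted p = 3.2e-07). Mirt1 was on the list by its name and is not shown here to be a microRNA host. Its peak, which held no annotated microRNA gene, had 98 and 111 against 411 and 412 (1.97 ± 0.33, limma, adjusted p = 2.8e-08). Mir17hg, the precursor of the miR-17 to miR-92 cluster, had 736 and 883 against 1506 and 1673 (0.98 ± 0.27, limma, adjusted p = 0.000578). That peak lay with a fraction of only 0.1 inside the gene. Its change was 1.05 without sKO library 1 and 0.90 without sKO library 2. Genotypes were apart in these 3, and only Mir17hg was below the median of all peaks.

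Peaks that contained an annotated microRNA gene, whatever the name of the host, rose less than the other lncRNA peaks. The 27 such peaks had a median change of 0.76 against 1.24 in the 2121 others, and 18 of the 27 were below the median of all tested peaks. Measured per library, the difference was -0.42 in sKO 1 and -0.45 in sKO 2, beyond the 0.04 by which each Ctrl library differed from the Ctrl mean (exact permutation p = 0.333). These peaks were long, with a median of 16800 bases, and their Ctrl level was 26.5 per kb against 20.4 in the others. Among peaks of 10000 bases or more the medians were 0.74 (19 peaks) and 1.15 (620 peaks). The part of the Ctrl level in this difference was not tested.

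Both let-7 peaks were among them. The peak with let-7c and let-7b on Lncppara (chr15:85682600-85710799) had 790 and 871 (Ctrl) against 1281 and 1404 (sKO) (0.69 ± 0.27, adjusted p = 0.0132), which was called and lay 0.45 below the median of all peaks. Its change was 0.76 without sKO library 1 and 0.63 without sKO library 2. Lower on the same chromosome, the first Gm49539 peak had shown one of the largest rises, and the second (chr15:85650000-85666999) had 96 and 106 against 804 and 899 (3.06 ± 0.30, adjusted p = 2.7e-20). Per kb, the second Gm49539 peak and the Lncppara peak had means of 5.94 and 29.5 in Ctrl, against 50.1 and 47.6 in sKO. Neighbouring lncRNA peaks thus had unlike levels in Ctrl and like levels in sKO.

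The Dleu2 peak with miR-15a and miR-16-1 (chr14:61628200-61642399) had 354 and 431 (Ctrl) against 592 and 576 (sKO). Its change of 0.58 ± 0.28 (limma, adjusted p = 0.0455) was called. The change was 0.56 without sKO library 1, 0.60 without sKO library 2, 0.44 without Ctrl library 1 and 0.72 without Ctrl library 2. The largest rise among the microRNA peaks was on 4631405K08Rik with miR-205, an epithelial microRNA, where 41 and 93 stood against 351 and 421 (2.62 ± 0.36, adjusted p = 3.4e-11). On E130102H24Rik, with miR-101a, 214 and 176 stood against 666 and 700 (1.81 ± 0.29, adjusted p = 1.1e-08). In both, Ctrl and sKO scores were far apart.

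Genes with several peaks showed how the change varied along 1 transcription unit. Pvt1, a growth-associated lncRNA next to Myc, had the most lncRNA peaks, 13, with changes from 0.62 to 2.29. Of these, 12 were called higher, near the 90.1% of all tested peaks. Ctrl levels along Pvt1 spanned 10.5 to 32.8 per kb and sKO levels 39.9 to 53.5 per kb. Its first peak, over the gene start (chr15:62037800-62045999), had 71 and 113 (Ctrl) against 408 and 469 (sKO) (2.27 ± 0.33, adjusted p = 3.2e-10). The last peak (chr15:62320200-62323199) had 37 and 26 against 187 and 129 (2.29 ± 0.53, adjusted p = 5.9e-05). Genotypes were apart in both, and the weakest changes lay between them.

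Lncpint, a p53-induced lncRNA, had 7 peaks, all called higher, and 6 of them exceeded the median of all peaks. The changes ran from 1.01 to 2.15. In the peak with the largest change 87 and 88 (Ctrl) stood against 347 and 445 (sKO) (2.15 ± 0.34, adjusted p = 4.8e-09). In the one with the smallest, nearest the gene start, 144 and 202 stood against 293 and 406 (1.01 ± 0.31, adjusted p = 0.00198), and without sKO library 2 the change was 0.78. Over Pvt1 and Lncpint together, 19 of 20 peaks were called higher on the spike-in scale, where 90.1% of all tested peaks were. With libraries scaled to equal totals 9 of 20 were called higher and none lower, against 22.5% and 4.42% of all tested peaks.

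Mir99ahg, host of the miR-99a, let-7c-1 and miR-125b-2 cluster, had the widest range of the genes described, from 0.50 to 3.31 over 7 peaks. Its extremes were a peak with 57 and 113 (Ctrl) against 112 and 116 (sKO), which overlapped and was not called (adjusted p = 0.275), and one with 9 and 30 against 178 and 169 (adjusted p = 9.0e-07). Without Ctrl library 2 the change of the first of these was 0.99. Gm14005 had 12 peaks, 10 called higher, with changes from 0.47 to 1.84. Its longest, of 47200 bases, had 1524 and 2104 against 2602 and 2379, a change of 0.47 ± 0.28 that fell short of the 0.5 limit and was 0.71 without Ctrl library 2. Trerf1, listed here as a processed transcript although the symbol is that of a transcriptional regulating factor, had 9 peaks, all called, with changes from 0.80 to 1.81. Of all tested peaks, 90.1% were called higher. Over the 74 genes with 4 or more lncRNA peaks, the highest level was a median of 1.62 times the lowest in Ctrl and 1.37 times in sKO, and the spread was wider in Ctrl in 48 of them. The plot along 4 genes shows these profiles.

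**Figure D4:**
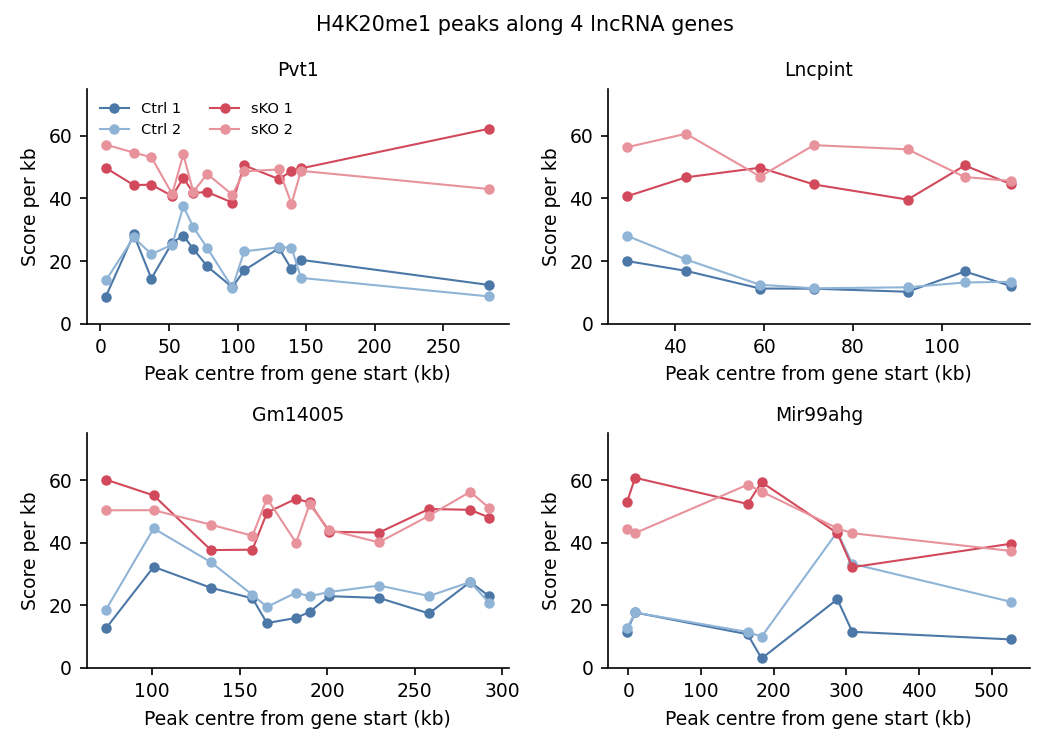
H4K20me1 score per kb (y axis) of each lncRNA peak of Pvt1, Lncpint, Gm14005 and Mir99ahg against the distance of its centre from the gene start in kb (x axis), with 1 line per library. Lines join neighbouring peaks only. The sKO lines lie above the Ctrl lines along Pvt1 and Lncpint, and a Ctrl 2 point reaches the sKO levels in 2 Mir99ahg peaks.

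Elongating polymerase was found at few of the lncRNA peaks. A Pol II S2P peak overlapped 271 of 2148 lncRNA peaks (12.6%), against 28.6% of protein-coding and 10.1% of no-gene peaks. Any overlap was counted, and median lengths were 6800, 9600 and 5800 bases in that order. The part of peak length in these shares was not tested. Of the 271, 189 held 1 such peak and 17 held 4 or more. Peaks with Pol II S2P had lower H4K20me1 than the others in Ctrl, with medians of 14.6 and 17.2 per kb against 17 and 24.1, and higher H4K20me1 in sKO, with 48.6 and 51.0 against 45.1 and 48.8. The order thus turned between the genotypes in both pairs of libraries.

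The change of lncRNA peaks with Pol II S2P exceeded that of the others by 0.51 in each sKO library, while the Ctrl libraries differed by 0.09 to either side of 0 (exact permutation p = 0.333). In protein-coding peaks the same difference was 0.12 and 0.11. The difference between the classes was 0.39 and 0.40 in the sKO libraries and 0.04 at most in the Ctrl libraries, again with the smallest p that 4 libraries allow. Leaving out Ctrl library 2 lowered the value in lncRNA peaks to 0.37. It was larger in short peaks, at 0.82 under 5000 bases (88 peaks with Pol II S2P), 0.50 from 5000, 0.34 from 10000 and 0.12 from 20000 bases on (28 peaks). Within classes of the Ctrl 1 level it was 0.55 in the lowest class and 0.05 in the highest, so the Ctrl level moved with it.

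The median change was 1.19 in the 1877 lncRNA peaks without Pol II S2P, 1.71 with 1 Pol II S2P peak, 1.80 with 2 or 3 and 1.43 in the 17 with 4 or more, which were longer, with a median of 14200 bases. Among the 10 lncRNA peaks with the highest summed Pol II S2P score, 8 were below the median change of all peaks, and their median was 0.64. This score was summed over whole Pol II S2P peaks, which can reach beyond the H4K20me1 peak, and was not divided by length, so the ranking is a description only. The 10 included Neat1, Lncppara, Malat1 and 6720427I07Rik, with small changes, and Lncpint, with 1.82.

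**Figure D5:**
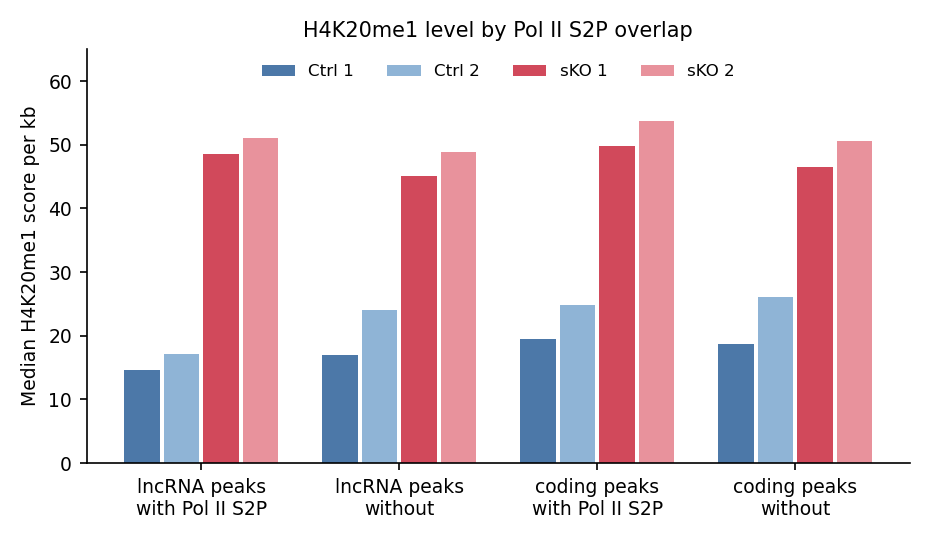
Median H4K20me1 score per kb (y axis, from 0) in the 4 libraries for lncRNA and protein-coding peaks with and without an overlapping Pol II S2P peak. In lncRNA peaks the Ctrl bars are lower with Pol II S2P (14.6 and 17.2) than without (17 and 24.1), and the sKO bars are higher.

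Pol II S2P itself was not called changed at lncRNA peaks. The 448 Pol II S2P peaks that overlapped them summed to 42714 and 54874 (Ctrl) against 65134 and 45958 (sKO), so that the genotypes overlapped. The exact permutation p for the median log2 score was 0.667. Of 216 with a mean score over 50, limma called none higher or lower, and 3 had an unadjusted p under 0.05, all with more signal in sKO. Over all 22353 tested Pol II S2P peaks the same limits called 10 higher and 1 lower, or 0.0447% and 0.00447%, and 774 had an unadjusted p under 0.05. Median log2 changes were 0.13 for those that overlapped lncRNA peaks and 0.11 overall.

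With libraries scaled to equal totals, 2 Pol II S2P peaks that overlapped lncRNA peaks were called higher and 1 lower, and they are named here after their values were seen. Over all tested Pol II S2P peaks 2.49% were then called higher and 1.2% lower. Pol II S2P peaks on 1700112D23Rik and Gm11837 were called higher, with 22 and 36 against 95 and 67 (adjusted p = 0.0425) and with 63 and 107 against 236 and 97 (adjusted p = 0.0983). The sKO and Ctrl scores overlapped in the second. One on Lncppara was called lower, with 260 and 229 against 188 and 155 (adjusted p = 0.0552). On the spike-in scale the same Lncppara peak had a change of -0.51 ± 0.40 with an unadjusted p of 0.194.

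The highest summed score of Pol II S2P peaks that overlapped an lncRNA peak was on Neat1. There 2 Pol II S2P peaks of 15792 and 11006 bases reached well beyond the H4K20me1 peak of 5600 bases and summed to 6062 and 8305 (Ctrl) against 11699 and 8032 (sKO). The 3 on Malat1 summed to 2783 and 3196 against 3691 and 2398, and the 12 on 6720427I07Rik to 2085 and 2893 against 4227 and 2700. In each of them sKO 1 was the highest library and sKO 2 lay below Ctrl 2, as it did in the sum over all lncRNA peaks. On Lncpint 24 Pol II S2P peaks summed to 1893 and 2637 against 2625 and 2229.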

How the data were processed

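CUT&RUN libraries of cultured MuSCs were analysed from the 2 deposited tables of union peaks, for H4K20me1 and Pol II S2P, with 2 libraries per genotype and antibody. The IgG libraries were not analysed here. Per the study's methods and the submitters' processing notes, reads were trimmed (Trimmomatic 0.39), aligned to mm10 (GRCm38) with STAR 2.7.3a, deduplicated (Picard 2.21.7) and peaks were called (SICER 0.0.41, MACS2 2.1.1) and merged over samples. Each deposited score is coverage per union peak, normalised by the authors to Drosophila spike-in reads and held as a whole number, so no count model was used. Since peaks were merged, a peak may have been called in 1 genotype only. The deposited column with the fraction of each peak inside its gene was used for the alternative restricted to peaks with a fraction over 0.5.

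Scores were analysed as log2(score + 1) with limma 3.58.1 (lmFit, eBayes with trend; R 4.3.3) over all autosomal peaks with a mean score over 50, after a check on simulated data. Values per library were compared with exact permutation tests (scipy 1.17.1). DESeq2, used in the study, was not run because the scores are not counts. Gene symbols, microRNA genes and coding genes were from GENCODE M21, and base composition from GRCm38.p6. Peak coordinates are those of the deposited table.

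Named peaks were those of genes on 7 lists, the 5 highest in Ctrl per kb, the 5 largest rises, the 5 smallest changes, the 3 genes with most peaks and those next to the length limit. The members and lists were chosen with earlier results of these data known. The labels do not say whether replicates were separate animals, so p-values measure the spread between these libraries. Alternatives were other scalings, a pseudocount of 10, no filter, a replicate block, other classes, lengths and levels, and each library left out.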

Additional observations from a re-analysis of the deposited data

Results flagged for a closer look

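LncRNA peaks outside the comparisons also had more H4K20me1 in sKO. The 129 lncRNA peaks on the X chromosome had a median log2 change of 0.46, and both sKO scores exceeded both Ctrl scores in 69 of them and lay below in none. The 3917 peaks of the whole X chromosome had a median of 0.39. Both sKO scores were above both Ctrl scores in 2027 of these and below in 28. The 15 autosomal lncRNA peaks of 50000 bases or more had a median of 0.67 with both sKO scores above both Ctrl scores in all 15. The 1976 protein-coding peaks of that length had a median of 0.81, with both sKO scores above in 1892. The medians of 0.46 and 0.67 were below the 1.24 of the 2148 lncRNA peaks, a difference that was not tested.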

How the results depend on the processing

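The scale between libraries moved the counts of calls and the level difference. With equal totals 608 lncRNA peaks were called higher and 54 lower (28.4% and 2.52%, against 22.5% and 4.42% of all tested peaks). With quantile normalisation the counts were 296 and 237 (13.8% and 11.1%, against 11.6% and 11.6%). The median level difference became 0.33 and 0.0326 respectively. With equal totals, 2 Pol II S2P peaks that overlapped lncRNA peaks were called higher and 1 lower. Leaving out single libraries gave 1081 to 2115 peaks called higher and 0 to 1 lower, a level difference of 1.05 to 1.57, and a Pol II S2P split of 0.37 to 0.57. The share of all tested peaks called higher moved with the library left out in the same order as that of lncRNA peaks. Such fits leave 1 library in a genotype, so nothing is concluded from their counts of calls. The cause was not tested.

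The excess over protein-coding peaks and the Pol II S2P split moved more with peak length and Ctrl level. The excess was 0.0946 with equal totals, against 0.0949, and 0.0209 with quantile normalisation, where the split stayed at 0.49. The excess was 0.0729 with a pseudocount of 10 and 0.0584 against no-gene peaks. By length it was 0.0543 from 5000, 0.0642 from 10000 and -0.0934 from 20000 bases on, and by rising Ctrl 1 level -0.0307, -0.0557, -0.0693 and -0.0273. The share difference was 0.25 points over peaks with a fraction over 0.5 in the gene. The Pol II S2P split was 0.82, 0.34 and 0.12 under 5000, from 10000 and from 20000 bases on, and 0.30, 0.35 and 0.0548 in the upper 3 level classes. The split by overlap with a coding gene rested on the 2 peaks whose own gene is typed protein-coding, so nothing is concluded from it. Their difference from the others was 0.18 (exact permutation p = 0.667). It was -0.0415 when over 0.5 of the peak had to overlap (1 peak) and -0.0084 to 0.36 with single libraries left out.

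Equal totals lowered the median change of all tested peaks from 1.14 to 0.17, so peaks with small changes turned by construction, which says nothing about the stability of single peaks. Log2 changes with equal totals and quantile normalisation were -0.11 and -0.20 for Pantr1, -0.51 and -0.74 for Gm14095, -0.39 and -0.72 for 2900097C17Rik, -0.36 and -0.81 for Platr30, -0.0306 and -0.30 for the first and -0.40 and -0.65 for the second Miat peak, and -0.14 and -0.16 for Hottip. They were -0.41 and -0.69 for the second Snhg5 peak, -0.27 and -0.31 for Meg3, -0.0603 and -0.10 for Mirg, -0.29 and -0.29 for Lncppara, -0.85 and -1.19 for Gm41505, and -0.65 and -0.95 for Neat1. For the microRNA peak of Dleu2 they were -0.40 and -0.56, for the lowest Mir99ahg peak -0.47 and -0.86, and for the longest Gm14005 peak -0.51 and -0.36. Mir17hg turned with equal totals only (-0.0047), and Dlx6os1 (-0.20), Rian (-0.0036), Airn (-0.22) and the lowest Lncpint peak (-0.23) with quantile normalisation only. With single libraries left out the changes ran from -0.35 to 0.32 for Gm12962, from -0.57 to 0.12 for Gm43154, from -0.52 to 0.48 for Gm48341, from -0.30 to 0.0628 for 6720427I07Rik and from -0.0083 to 0.66 for Neat1. The negative end was without Ctrl library 1 in each, and the positive end without Ctrl library 2.

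The correlations of the deviations of same-numbered libraries were 0.03 and -0.04 for the 2 antibodies. With 2 libraries per genotype these cannot show whether such libraries were prepared together, and the labels do not say. A replicate block called 1956 lncRNA peaks higher (91.4%, against 90.5% of all tested peaks) and 0 lower, and 0 Pol II S2P peaks. Of 42 peaks described, the block, the pseudocount of 10 and the absence of a filter changed no call. Read totals per library were not used here, and no counting interval is given because the scores are not read counts.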

Other observations

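LncRNA peaks with a snoRNA gene inside numbered 11, of which 10 were called higher, near the 90.1% of all tested peaks. Their changes ran from 0.53 to 2.05 with a median of 0.91, and 6 lay below the median of all tested peaks. By chromosome, lncRNA peaks made up between 3.12% of the autosomal H4K20me1 peaks on chromosome 11 and 7.02% on chromosome 18. Their median change was lowest on chromosome 4, at 1.07, where the median of all peaks was 1.10. It was highest on chromosomes 10 and 16, at 1.42 on both, where those of all peaks were 1.25 and 1.20. Across the 2148 lncRNA peaks the change had no rank relation to GC content (Spearman rho of 0.00 to 2 decimals) and a weak one to the observed over expected CpG ratio (rho 0.17), as in protein-coding peaks (rho 0.06 and 0.16).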
